A study of Mus musculus with 15 samples.

Results

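The subject is what still set the spinal motor neurons of spinal muscular atrophy (SMA) mice treated with Pifithrin-α apart from those of WT mice. The members are the 3 SMA+Pifithrin-α and the 3 WT libraries, 6 of the 15 libraries of the series, chosen by their labels alone. The 3 libraries of SMA mice given vehicle are set beside them, from the same fit. Each library held polyadenylated RNA of motor neurons cut by laser-capture microdissection from lumbar segments L1 to L3 of the spinal cord at postnatal day 6, sequenced in read pairs of 100 bases. The neurons carried cholera toxin subunit B (CTB), a tracer that nerve endings take up and carry back to the cell body. Labelled neurons were the target of the cutting, but markers of other cell types, given below, were also present in the libraries.

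SMA here means SMNΔ7 mice, Smn-/- with the human SMN2 and SMNΔ7 transgenes. WT means their Smn+/+ littermates, which carry the same 2 transgenes, so human SMN transgenes are shared by the groups and were not analysed here. All groups were on an FVB background with males and females in equal proportions. Each mouse was injected intraperitoneally once a day starting at postnatal day 0, with Pifithrin-α at 2.2 mg/kg in the treated group and vehicle in WT and SMA. The design text calls the 3 libraries of a group biological replicates. The number of animals behind each library, any pooling and the site of the tracer injection are not given in the sources used here, so p-values measure the spread between libraries.

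Spinal muscular atrophy follows from too little SMN, a protein that assembles the small nuclear ribonucleoproteins of the spliceosome, and motor neurons are the cells most affected. The transcription factor p53 is stabilised by many kinds of stress, binds paired decameric half-sites in DNA and switches on genes for cell cycle arrest, cell death, repair and metabolism, among them Mdm2, whose product in turn degrades p53. Pifithrin-α is a small molecule described as an inhibitor of p53-dependent transcription. In neurons that no longer divide, p53 targets such as Cdkn1a, the cyclin-dependent kinase inhibitor p21, are known markers of the pathway.

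Values are scaled TPM, the deposited length-normalised transcript abundance divided by a factor per library that sets the median ratio between libraries to 1. A gene was tested if its deposited TPM was at least 1 in at least 3 libraries, which left 15425 genes. Differences are in log2(scaled TPM+1), which understates the change of genes near 0. A called gene is one whose p from limma was under 0.05 after Benjamini-Hochberg adjustment. The depth behind a TPM value is unknown, so no detection limit is given.

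Libraries WT 1 and SMA+Pifithrin-α 3 stood apart from the rest. The share of TPM from mitochondrially encoded genes was 21.9% in WT 1, 20.4% in SMA+Pifithrin-α 3, 12.6% in SMA+Pifithrin-α 2 and 3.76% to 11.3% in the other 12 libraries. The share did not separate the groups, at 12.9% ± 7.32 (SD, n = 3) in SMA+Pifithrin-α and 12.3% ± 8.30 (SD, n = 3) in WT (exact two-sided permutation p = 1, where 3 against 3 cannot go below 0.1). Libraries SMA+Pifithrin-α 2 and 3 were above every SMA library (3.76% to 7.15%), and the part of this share in the comparison with SMA was not tested. Results are given with all libraries and, as "without the pair", with WT 1 and SMA+Pifithrin-α 3 left out.

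The targeted gene matched the labels. Smn1, the mouse gene for SMN (chr13:100124852-100137690 on the plus strand of GRCm38, protein coding), was at 11.4, 17.5 and 21.7 scaled TPM in WT and at 0.367, 0.720 and 0.334 in SMA+Pifithrin-α. In SMA it was at 0.425 in 1 library and listed at 0 in the other two. Every SMA+Pifithrin-α library lay far below every WT library. The difference from WT was -3.56 ± 0.38 (log2, SE, adjusted p = 0.000220), and -3.77 without the pair. Against SMA the treated group differed by 0.38, with a 95% interval of -0.41 to 1.17.

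Between SMA+Pifithrin-α and WT, 27 of the 15425 genes were called (0.175%), 24 higher in the treated neurons (0.156%) and 3 lower (0.0194%). At an unadjusted p under 0.05 there were 692 higher (4.49%) and 433 lower (2.81%). The median difference of all genes was 0.01. In all 27 called genes the 3 treated libraries lay on one side of the 3 WT libraries, as they did in 8.08% of all tested genes. The 27 were picked by p on these libraries, so their separation adds nothing to the calls. Without the pair 18 genes were called (0.117%), 13 of the 27 among them. All 27 kept their direction, in a fit that reuses the other libraries. A fit with the 6 libraries alone called 0 genes, with 482 at an unadjusted p under 0.05, so the calls rest on a spread estimated from all 15 libraries. That fit has fewer degrees of freedom, keeps the filter and scaling of all 15 libraries, and includes WT 1 and SMA+Pifithrin-α 3. The shared fit takes the spread as equal in all groups. With array weights, which let libraries differ in weight, it called 7 genes. What accounts for the lost calls was not tested. Leaving out 1 of the 6 libraries gave 9 calls (without SMA+Pifithrin-α 2) to 24, with 14 without SMA+Pifithrin-α 3, 16 without WT 2 and 18 without WT 1. The genes Smn1, Cdkn1a, Dcxr, 1700007K13Rik, Crip2, Zfp87, Plek2 and Plk2 kept the call in all 6 of these fits, and each of the other 19 lost it at least without SMA+Pifithrin-α 2.

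**Figure D1:**
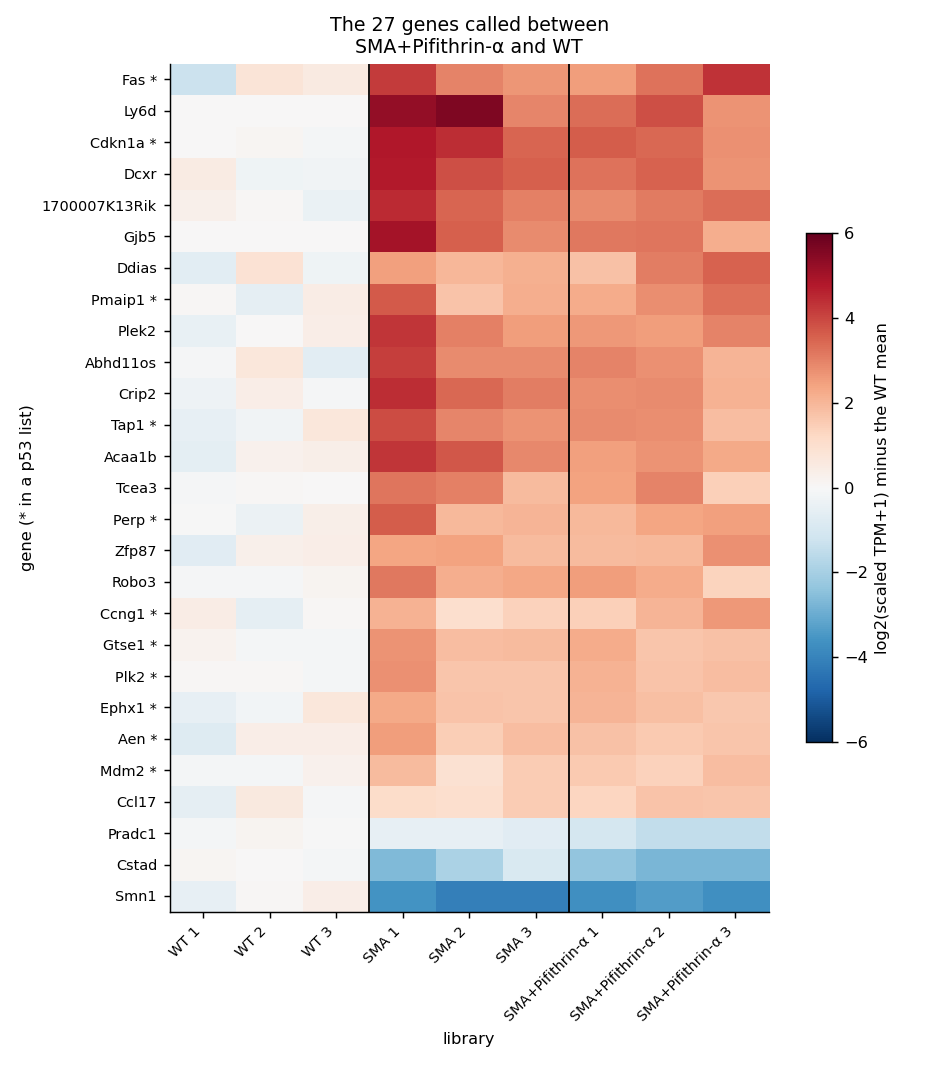
Heat map of the 27 called genes (rows, ordered by their log2 difference between SMA+Pifithrin-α and WT, * marking members of a p53 list) in 9 libraries (columns, 3 each of WT, SMA and SMA+Pifithrin-α). Colour gives log2(scaled TPM+1) minus the WT mean, red above and blue below it. The 24 genes at the top are red in every treated library and the 3 at the bottom are blue.

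Of the 27, 11 belonged to the 52 tested genes of 5 p53 lists, and all 11 were higher in the treated neurons. Over the 52 genes the median difference from WT was 0.65 against 0.01 for all tested genes, 45 of 52 were above 0 (51.4% of all genes were), and 25 had an unadjusted p under 0.05, all of them higher. The lists were drawn up with earlier results of these data known, so these values are not an independent test of the p53 genes. Without the pair the median was 0.82 with 46 above 0, but the called members dropped from 11 to 3, namely Cdkn1a, Plk2 and Ccng1. The median log2 level of the 52 genes was 3.08 to 3.35 in the WT libraries and 3.79 to 4.01 in the SMA+Pifithrin-α libraries, which did not overlap.

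Of p53 and its feedback genes, Mdm2, the ubiquitin ligase that p53 induces and that degrades p53, was the called member of 7. It stood at 10.6, 10.8 and 14.1 scaled TPM in WT, 46.3, 22.6 and 35.8 in SMA and 36.8, 32.3 and 44.5 in SMA+Pifithrin-α. Each treated library was far above the highest WT value, and all lay within the SMA range. The difference from WT was 1.60 ± 0.28 (SE, adjusted p = 0.0238), 1.43 without the pair (adjusted p = 0.0902), and leaving out a single library removed the call in 5 of 6 cases.

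Trp53 itself, which encodes p53 and lies at chr11:69580359-69591873 (plus strand), was at 18, 17 and 14.6 in WT and 35.1, 32.1 and 22.4 in SMA+Pifithrin-α, against 46.3, 33.2 and 31.3 in SMA. All treated values were above all WT values, but the difference of 0.80 ± 0.29 missed the threshold (adjusted p = 0.597). Trp53inp1, a p53-induced nuclear protein, was at 0.754, 1.55 and 1.62 in WT and 3.02, 7.46 and 5.11 in treated neurons (adjusted p = 0.264). Rchy1, a ubiquitin ligase for p53, also lay above WT in every treated library, at 47.0 to 71.4 against 34 to 41.7 (adjusted p = 0.587). Mdm4, the partner of Mdm2, overlapped between the groups (4.70 to 20.8 in WT and 10.2 to 12.3 in treated) and its difference of 0.25 turned to -0.17 without WT 2.

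The genes of cell cycle arrest held 4 called members of 10 and the largest median, 1.25 (1.35 without the pair). Cdkn1a, at chr17:29090976-29100727 on the plus strand with AC167363.2 on the other, was at 45.7, 50.1 and 41.5 scaled TPM in WT, at 576, 503 and 307 in SMA+Pifithrin-α and at 1314, 1002 and 529 in SMA. The lowest treated library had several times the highest WT value, while the highest treated library lay above the lowest SMA library. The difference from WT was 3.26 ± 0.32 (SE, adjusted p = 0.000102) and 3.55 without the pair (adjusted p = 0.000113). Against SMA it was -0.99 ± 0.32, with a 95% interval of -1.66 to -0.32 and an unadjusted p of 0.00627 that did not pass the adjustment (adjusted p = 0.437), and -0.72 without the pair.

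Ccng1, which encodes cyclin G1, was at 27.3, 13.1 and 20.9 in WT and 54.5, 85.0 and 123 in SMA+Pifithrin-α, with 41.1 to 87.5 in SMA. All treated libraries exceeded all WT libraries, by 2.03 ± 0.34 (adjusted p = 0.0181, and 0.0303 without the pair). The call was lost without WT 2, SMA+Pifithrin-α 2 or SMA+Pifithrin-α 3, with adjusted p-values up to 0.122. Plk2, a polo-like kinase, was close to even within groups, at 7.46, 7.52 and 6.41 in WT and 33.2, 25.6 and 28.2 in treated neurons, a difference of 1.88 ± 0.28 (adjusted p = 0.00786, and 0.0283 without the pair). Gtse1, whose product binds p53 in the cell cycle, was at 0.677 to 1.09 in WT and 4.83 to 7.5 in treated neurons (1.89 ± 0.36, adjusted p = 0.0370), and it lost its call whichever library was left out. Of the members not called, Btg2, Ckap2 and Psrc1 also lay above WT in every treated library (differences of 0.92, 1.26 and 1.25), and Sfn, Plk3 and Gadd45a overlapped with WT.

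**Figure D2:**
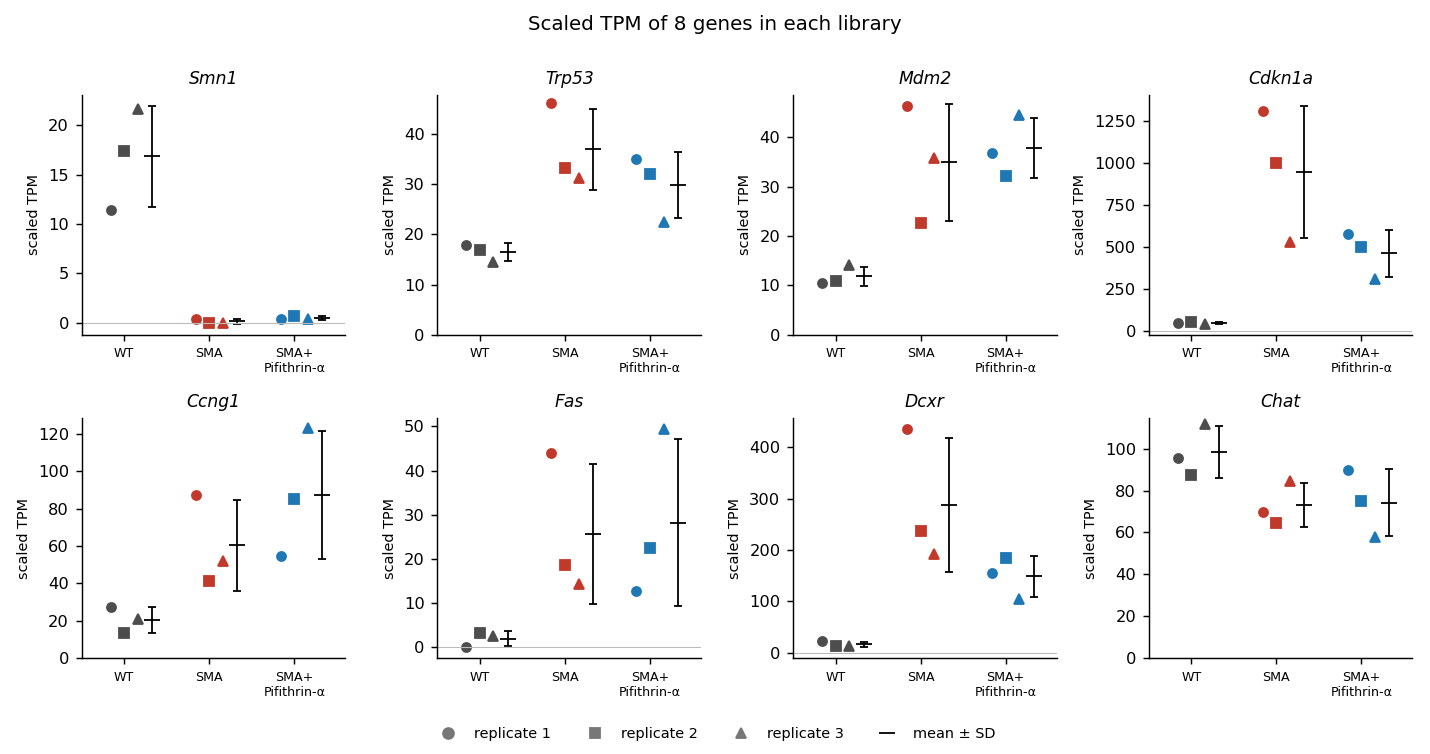
Scaled TPM (vertical axes, linear, grey line at 0) of 8 genes in the WT, SMA and SMA+Pifithrin-α libraries. Points are libraries, with the shape giving the replicate number, and bars are the mean ± SD of 3. Smn1 stays near 0 in the treated libraries, Trp53, Mdm2, Cdkn1a, Ccng1, Fas and Dcxr lie above all WT libraries, and Chat overlaps.

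The promoters of 6 of the genes called higher are shown because they hold a p53 half-site near the start of the gene. Cdkn1a and 1700007K13Rik each hold 2, and that of Aen lies in the windows of 2 annotated starts. The half-site (purines, C, a pair of A or T, G, pyrimidines, 10 bases that read alike on both strands) was searched in the RefSeq promoter table of GRCm38.p6, 250 bases before to 50 after each start. Of the 24 genes called higher, 20 had a window and 6 of these (30%) held a half-site, as did 8.55% of the 11114 tested genes with a window. All of the 6 but 1700007K13Rik were members of the p53 lists, so this share is not independent of the lists. Single half-sites were searched, not pairs. Capitals mark the half-site, and each line gives the stretch around it, 5′ to 3′ on the strand of the gene. They are Cdkn1a at chr17:29090881-29090940 with the site 73 bases before the start, Cdkn1a at chr17:29090903-29090962 with the site 51 before (both plus strand), Mdm2 at chr10:117710910-117710969 (minus, 186 before), Ccng1 at chr11:40755437-40755496 (minus, 185 before), Aen at chr7:78895912-78895971 (plus, 121 before), 1700007K13Rik at chr2:28466381-28466440 (minus, 91 before) and at chr2:28466275-28466304 (minus, 30 bases after), and Gtse1 at chr15:85859945-85859974 (plus, just after the start).
Cdkn1a, site 73 before: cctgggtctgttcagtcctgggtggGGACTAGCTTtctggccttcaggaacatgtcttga
Cdkn1a, site 51 before: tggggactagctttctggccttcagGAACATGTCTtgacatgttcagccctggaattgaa
Mdm2: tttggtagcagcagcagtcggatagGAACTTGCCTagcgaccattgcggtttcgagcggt
Ccng1: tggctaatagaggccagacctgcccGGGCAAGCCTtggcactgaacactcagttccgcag
Aen: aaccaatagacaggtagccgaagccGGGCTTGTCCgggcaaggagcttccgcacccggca
1700007K13Rik, site 91 before: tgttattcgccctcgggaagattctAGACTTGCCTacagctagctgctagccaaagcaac
1700007K13Rik, site after: gacttgatctGGGCTAGTTTcctgcgggag
Gtse1: gagcaagttgGGGCTTGCCTctgacttgcc
A match describes these letters only, and binding was not measured.

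The cell death list had 4 called members of 14, a median of 0.87 and 13 members above 0. Fas, a death receptor of the cell surface, was listed at 0 in WT 1 and was at 3.21 and 2.55 in the other WT libraries, against 12.8, 22.4 and 49.4 in SMA+Pifithrin-α and 14.4 to 43.9 in SMA. The highest treated value is that of the library with the high mitochondrial share, and the difference was 3.36 ± 0.54 (adjusted p = 0.0150) with all libraries and 2.25 (adjusted p = 0.0703) without the pair. Pmaip1, the BH3-only protein Noxa, was at 1.36, 0.535 and 2.05 in WT and 9.52, 14.3 and 21.2 in treated neurons (2.78 ± 0.49, adjusted p = 0.0238). Perp, a tetraspan membrane protein, was at 7.92, 6.11 and 10.2 in WT and at 32.9, 45.2 and 48.7 in the treated libraries (2.26 ± 0.38, adjusted p = 0.0182).

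Aen, an apoptosis-enhancing nuclease, was at 14.7, 34.9 and 34.2 in WT and at 91.0, 78.7 and 85.8 in treated neurons (1.67 ± 0.31, adjusted p = 0.0363). In each of these 4 genes the treated libraries lay clear of WT and overlapped with SMA. Without the pair Pmaip1 (adjusted p = 0.140), Perp (0.0832) and Aen (0.0810) passed the threshold no longer. Pidd1, which nucleates a caspase-2 platform, was at 0 to 1.31 in WT and 2.53 to 10.3 in treated neurons but was not called (adjusted p = 0.122), nor was Ei24 (24.4, 23.6 and 26.9 against 43.5, 50.4 and 41.4, adjusted p = 0.305).

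The BCL2 family members Bax and Bbc3 overlapped with WT. Bax, the pore-forming protein of mitochondrial apoptosis, was at 110, 196 and 175 in WT, 209, 206 and 144 in treated neurons and 320, 255 and 252 in SMA. The treated values overlapped with WT (0.24 ± 0.23, adjusted p = 0.862) and were below every SMA library. Bbc3, the BH3-only protein Puma, showed 7.49, 23.7 and 22.7 in WT, 32.9, 27.8 and 14.6 in treated neurons and 53.2, 43.0 and 43.5 in SMA. It differed from WT by 0.54 (95% interval -0.28 to 1.36, adjusted p = 0.807) and from SMA by -0.93 (adjusted p = 0.437), below every SMA library. Bax and Bbc3 were singled out after their values were seen.

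Among 15 metabolic and other targets Ephx1 and Tap1 were called and the median was 0.55. Ephx1, the microsomal epoxide hydrolase, was at 7.03, 9.13 and 17.6 in WT and 46.4, 39.0 and 34.2 in treated neurons (1.82 ± 0.32, adjusted p = 0.0245). Tap1, a subunit of the peptide transporter that loads MHC class I, had scaled TPM of 0, 0.208 and 1.22 in the WT libraries, against 8.76, 8.74 and 4.04 in treated neurons (2.49 ± 0.45, adjusted p = 0.0252). Both were apart from WT in every library, and both missed the threshold without the pair (0.0758 and 0.0525). Tap1 overlaps Psmb9 on the other strand, and whether counting used the strand is not given in the sources used here.

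The 6 DNA repair targets held no called member, and their median was 0.11 (0.39 without the pair), with 1 member at an unadjusted p under 0.05. That member was Polk, a translesion polymerase, at 0.604, 1.3 and 2.37 in WT and 4.20, 7.63 and 11.5 in treated neurons (1.83 ± 0.46, adjusted p = 0.264). Xpc, Ercc5, Ddb2, Pcna and Rrm2b overlapped with WT, with differences of -0.14 to 0.21.

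**Figure D3:**
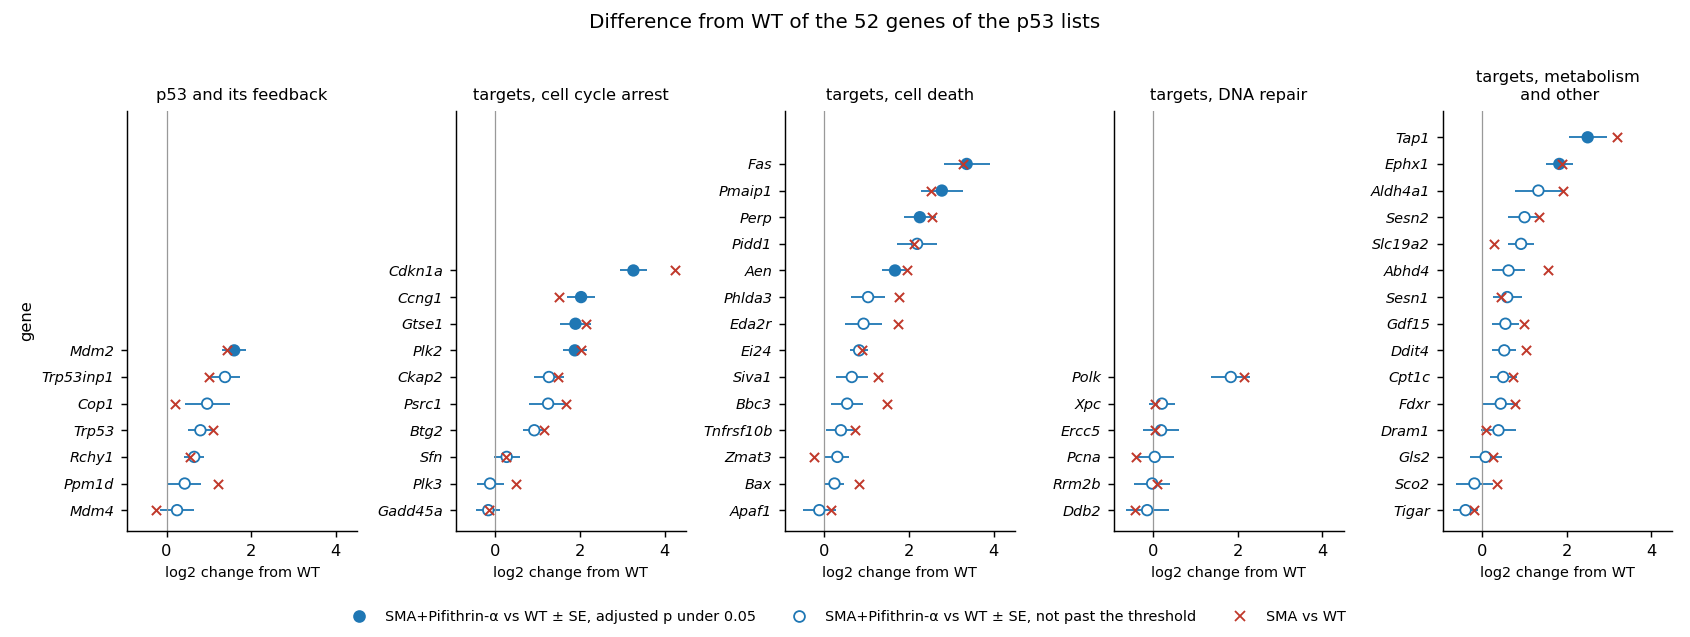
Log2 difference from WT (horizontal axes) of the 52 genes of 5 p53 lists, 1 panel per list. Circles are SMA+Pifithrin-α against WT with bars of ± SE, filled where the adjusted p was under 0.05, and crosses are SMA against WT, which uses the same WT libraries. The filled circles are 11, none of them in the DNA repair panel.

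Outside the p53 lists 13 further genes were higher in the treated neurons. Dcxr, an L-xylulose and dicarbonyl reductase at chr11:120725399-120727281 (minus strand), had the lowest p of all genes. It was at 21.8, 12.6 and 12.9 scaled TPM in WT, 155, 185 and 104 in SMA+Pifithrin-α and 436, 237 and 191 in SMA. Treated libraries lay far above WT and below every SMA library. The difference from WT was 3.16 ± 0.30 (adjusted p = 0.000102), 3.65 without the pair, and that from SMA -0.90 ± 0.30 (95% interval -1.54 to -0.26, unadjusted p = 0.00836, adjusted p = 0.437).

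Crip2, a LIM domain protein, had the same order of groups, at 16.2, 26.8 and 19.4 in WT, 145, 152 and 89.6 in treated neurons and 463, 235 and 177 in SMA. It exceeded WT by 2.57 ± 0.32 (adjusted p = 0.00163). Against SMA it stood at -1.09 ± 0.32 (unadjusted p = 0.00393, adjusted p = 0.437). Acaa1b, a peroxisomal thiolase, was at 0 to 0.871 in WT, 6.08 to 8.60 in treated neurons and 10.1 to 28.2 in SMA, again with no overlap between any of the groups. Its adjusted p was 0.0150 against WT, 0.0543 without the pair and 0.437 against SMA. Acaa1b has a close paralog, Acaa1a, so its reads may be split between copies, and it overlaps Dlec1 on the other strand.

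The uncharacterised gene 1700007K13Rik was at 8.24, 6.81 and 4.74 in WT, 52.7, 64.2 and 76.3 in treated neurons and 60.5 to 166 in SMA (3.12 ± 0.34, adjusted p = 0.000310). Zfp87, a zinc finger protein of a family with near-identical members, was at 14.3, 29.1 and 31.7 in WT, 92.4, 95.4 and 163 in treated neurons and 92.0 to 131 in SMA (2.20 ± 0.31, adjusted p = 0.00498). Plek2, a pleckstrin protein of the membrane cytoskeleton, was at 1.75 to 4.01 in WT and 20.2 to 29.1 in treated neurons (2.70 ± 0.39, adjusted p = 0.00660, and 0.0525 without the pair). These 3 genes were above WT in every treated library by a wide margin. Their differences from SMA were -0.56, -0.02 and -0.57, with adjusted p-values of 0.495, 0.979 and 0.542.

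Ddias, a DNA damage-induced apoptosis suppressor, was at 0, 1.82 and 0.265 in WT and 4.09, 11.9 and 17.0 in treated neurons (2.79 ± 0.47, adjusted p = 0.0182, and 0.143 without the pair). Ccl17, a chemokine, was already present in WT at 19.8, 44.2 and 27.5 and stood at 72.7, 97.7 and 94.4 after treatment (1.57 ± 0.27, adjusted p = 0.0238, and 0.0810 without the pair). Both exceeded WT in every library, and Ccl17 exceeded WT less than any other gene called higher. Abhd11os, a transcribed pseudogene that lies opposite Abhd11, was at 4.72, 8.60 and 2.80 in WT and 45.4, 39.1 and 23.6 in treated neurons (2.59 ± 0.38, adjusted p = 0.00660).

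The remaining higher genes were nearly silent in WT. Ly6d, a GPI-anchored surface protein, was listed at 0 in all 3 WT libraries and was at 9.37, 13.7 and 5.37 in treated neurons (adjusted p = 0.0150). Gjb5, which encodes connexin 31.1, was also listed at 0 throughout WT and was at 7.85, 8.41 and 3.54 (adjusted p = 0.0469), a call lost in every fit without 1 library. Tcea3, a transcription elongation factor, was at 0 to 0.114 in WT and 1.85 to 7.35 in treated neurons (adjusted p = 0.0363), and Robo3, an axon guidance receptor, at 0 to 0.173 and 1.65 to 5.00 (adjusted p = 0.0370). Tcea3 and Robo3 each kept the call in only 1 of the 6 fits without 1 library, that without SMA+Pifithrin-α 3, with adjusted p-values up to 0.273 and 0.245 in the others. With Acaa1b, these were the 5 called genes with every WT library under 1 scaled TPM, where the size of a log2 difference depends on the pseudocount. They passed the filter only through libraries of other groups. They could hardly have been called lower, so their direction carries little weight. In Tcea3, Robo3, Ly6d and Gjb5 the lowest treated value was that of SMA+Pifithrin-α 3.

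Besides Smn1, 2 genes were lower. Cstad, a gene named for T cell activation, was at 6.15, 5.64 and 5.07 in WT and at 0.290 in SMA+Pifithrin-α 1 and listed at 0 in the other two, with 0.0576 to 2.49 in SMA (-2.60 ± 0.44, adjusted p = 0.0182, and 0.125 without the pair). Pradc1, a protease-associated domain protein, was at 27.9, 34.2 and 29.5 in WT, 14.3, 10.4 and 10.4 in treated neurons and 21, 21 and 18.8 in SMA. Its treated libraries lay below both other groups in full. The difference was -1.32 ± 0.23 from WT (adjusted p = 0.0238, and 0.0442 without the pair) and -0.76 ± 0.23 from SMA (adjusted p = 0.437). The call was lost without WT 2, WT 3, SMA+Pifithrin-α 2 or SMA+Pifithrin-α 3, with adjusted p-values up to 0.160, and in 9 of 18 alternatives in all. Pradc1 overlaps Cct7 on the other strand.

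Set against vehicle-treated SMA (a comparison whose all-gene median moved from -0.03 to -0.22 if TPM were not scaled), no gene of the 27 passed the adjusted threshold with limma (lowest adjusted p = 0.437), and 6 had an unadjusted p under 0.05, as 11.3% of all genes did. They were Cdkn1a, Dcxr, Crip2, Acaa1b, Ly6d and Pradc1, all lower in the treated group. The log2 differences from SMA ran from -1.3 in Ly6d to 0.60 in Ddias. Both comparisons use the SMA+Pifithrin-α libraries, so a gene picked as high in these against WT is not an even sample for the comparison with SMA. For Ccng1 (0.53, 95% interval -0.18 to 1.24), Mdm2 (0.16, -0.43 to 0.75), Fas (0.09, -1.06 to 1.24) and Ddias (0.60, -0.39 to 1.58) the intervals include both a fall and a rise.

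Across all genes only Traj45, a short joining segment of the T cell receptor alpha locus, was called between SMA+Pifithrin-α and SMA (0.00648%). It was at 5.78, 7.25 and 6.65 in SMA and listed at 0 in every WT and SMA+Pifithrin-α library (adjusted p = 0.000144). Few places for a read to map exist in such a short feature. Among the groups shown, Traj45 reached the filter only through the SMA libraries, where it is high, so its direction carries little weight. The call was lost with a pseudocount of 0.1 and with only the libraries of the compared groups. With a filter at a mean TPM of 5 the segment was not tested.

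At the transcript level 27 of 41719 transcripts were called between SMA+Pifithrin-α and WT (0.0647%), 24 higher (0.0575%) and 3 lower (0.00719%), and 14 of the 27 were called without the pair too. Of these, 15 came from 12 of the called genes. Both called Cdkn1a transcripts are protein coding, Cdkn1a-201 at 17.6 to 24.7 in WT and 122 to 237 in treated neurons (3.16 ± 0.29) and Cdkn1a-202 at 13.8 to 30.2 and 197 to 338 (3.40 ± 0.40). Each took a similar part of the gene in both groups, 45.4% ± 15.1 and 42.0% ± 6.30 (SD, n = 3) for Cdkn1a-201. Smn1-201 was at 8.58 to 19.1 in WT and listed at 0 in all SMA and SMA+Pifithrin-α libraries.

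The part of Dcxr that came from Dcxr-204, a transcript that keeps an intron, differed between the groups. It made up 0%, 0% and 6.70% of the gene's TPM in WT, 19.2%, 23.2% and 22.3% in SMA+Pifithrin-α and 15.8% to 20.7% in SMA, with no overlap between WT and either other group. The protein-coding Dcxr-202 took 63.4% to 87.4% in WT and 55.2% to 59.6% in treated neurons. Abhd11os-202, which likewise keeps an intron, made up 0%, 5.94% and 43.1% of its gene in WT and 83.0%, 85.8% and 81.8% in treated neurons. The difference from WT was 4.70 ± 0.42 for Dcxr-204 and 4.34 ± 0.43 for Abhd11os-202 (adjusted p = 0.000165 and 0.000440), and both were called without the pair. Both were picked by a call on these same libraries, so the separation of their shares follows partly from the choice. Their WT levels were near 0, at most 0.819 scaled TPM for Dcxr-204 and 1.15 for Abhd11os-202. Abhd11os lies opposite Abhd11, and whether counting used the strand is not given.

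The other 12 called transcripts belonged to genes whose own level was not called (adjusted p for the gene 0.515 to 0.988). In each the share of the gene lay on one side of WT in every treated library, above it for 10 and below it for 2. This follows largely from how the 12 were picked, by a call on these same libraries. The rate of such separation over all transcripts is not given here. It was decided to name them after their values were seen. U2af1-207, from the gene for the small subunit of the factor that recognises 3′ splice sites, took 0.576%, 6.44% and 8.82% of its gene in WT, 39.8%, 26.9% and 26.3% in SMA+Pifithrin-α and 36.6% to 45% in SMA. The difference from WT was 3.00 ± 0.50 for the transcript (adjusted p = 0.0410, and 0.0140 without the pair) and 0.43 ± 0.20 for the gene (adjusted p = 0.680). Cox6b2-203, of a cytochrome c oxidase subunit, took 0% to 8.72% in WT and 30.4% to 34% in treated neurons. Nubp2-214, of an iron-sulphur cluster assembly factor, took 0% to 1.28% and 10.9% to 12.6%.

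Smaller parts of a gene moved as well. Ak1-204, a form of the adenylate kinase gene that keeps an intron, took 0% to 0.117% in WT and 6.01% to 6.08% in treated neurons, and Ifi27-202 was listed at 0 in WT and took 8.31% to 13.6%. Mrpl20-206, Swi5-203 (annotated for nonsense-mediated decay), Atp6v0a1-205, Calm2-204 and Atp5c1-206 were the other higher ones, each at mean shares of 0.685% to 4.92% in treated neurons. Hnrnpd-201 went the other way, from 12.1%, 12.4% and 7.95% in WT to 3.14%, 0% and 0.137%, as did 0610037L13Rik-208. Of these 12, Cox6b2-203, Calm2-204, Ak1-204 and U2af1-207 were called without the pair. Forms listed at 0 in WT, such as Ifi27-202, passed the filter only through other groups and could not have been called lower. Transcript TPM are estimates that divide shared reads between forms, so they are less sure than those of genes.

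The sequences that set 4 of these transcripts apart, and the junctions that tell the Cdkn1a forms from each other, are shown from the GENCODE M21 transcripts on GRCm38. Kept introns are given whole with their first and last pair of bases in capitals, Dcxr-204 from chr11:120726188-120726268 (minus) and Abhd11os-202 from chr5:135012333-135012429 (minus). For junctions found in no other transcript of the gene, the bases before the junction are in lower case and those after it in capitals, over the introns chr17:31648895-31658652 (U2af1-207, minus), chr17:24883410-24883805 (Nubp2-214, minus), chr17:29093862-29098396 (Cdkn1a-201, plus) and chr17:29091102-29098396 (Cdkn1a-202, plus).
Dcxr-204: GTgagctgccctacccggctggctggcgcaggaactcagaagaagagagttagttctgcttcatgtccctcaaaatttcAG
Abhd11os-202: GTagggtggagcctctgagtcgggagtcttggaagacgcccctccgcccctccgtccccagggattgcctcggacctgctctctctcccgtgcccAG
U2af1-207: caccgaaaaagacaaGTGCTGTGAGCGACG
Nubp2-214: gagttccctttttagGTCCTGGATATGAAA
Cdkn1a-201: tccagacattcagagCCACAGGCACCATGT
Cdkn1a-202: gcagaataaaaggtgCCACAGGCACCATGT
The U2af1-207 junction spans 9758 bases of intron and 7 annotated exons of other transcripts of the gene lie inside it. The bases after the junction are alike in both Cdkn1a forms, which differ in their first exon.

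**Figure D4:**
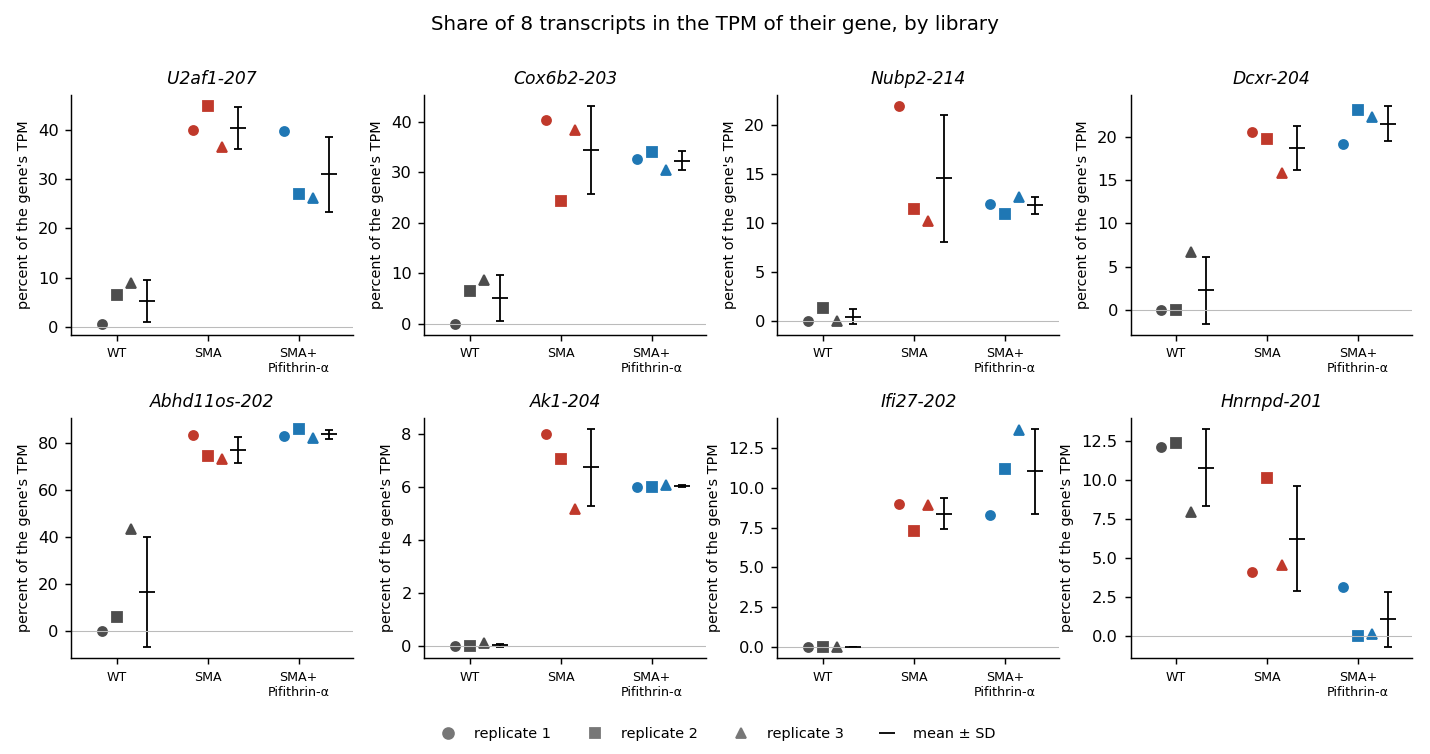
Share of 8 transcripts in the TPM of their gene (vertical axes, percent, linear, grey line at 0) in the WT, SMA and SMA+Pifithrin-α libraries. Points are libraries by replicate number and bars the mean ± SD of 3. In 7 panels every treated library lies above every WT library, and in that of Hnrnpd-201 every one lies below. All 8 were picked among the called transcripts.

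Genes of the motor neuron and of pathways tied to SMN held no called member with limma, while members at an unadjusted p under 0.05 numbered 1 of 8 in the SMN complex, 1 of 15 in motor neuron identity, 1 of 12 in AP-1 and axon injury and 1 of 17 in the integrated stress and unfolded protein list. The axonal cytoskeleton (16), excitability channel (15), minor spliceosome (10) and MHC class I and interferon (11) lists held none. Fosb, Irf7, Ifit1, Ifit3 and Oasl2 did not pass the filter on low values. In each list this is at most 1 gene, and 7.29% of all genes passed that level. List medians ran from -0.19 (excitability channels) to 0.33 (SMN complex).

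Motor neuron identity was measured through 15 markers, all tested, with summed levels of 3725 to 5209 scaled TPM in WT, 3813 to 4276 in SMA+Pifithrin-α and 3099 to 3998 in SMA. Chat, which makes acetylcholine, was at 95.6, 87.6 and 112 in WT and 89.9, 75 and 57.7 in treated neurons, overlapping values that differed by -0.42 (95% interval -0.87 to 0.04, adjusted p = 0.708). Calcb, a calcitonin gene-related peptide, was at 822, 1156 and 1409 in WT and 458, 577 and 997 in treated neurons. With all libraries the groups overlapped (-0.78 ± 0.29, adjusted p = 0.616), and without the pair it was called (-1.29, adjusted p = 0.0442). Mmp9, a marker of fast motor neurons, was at 17.8, 17.5 and 19.3 in WT and 6.08, 5.87 and 16.4 in treated neurons, below WT in every library but not called (-1.02 ± 0.51, adjusted p = 0.699).

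Without the pair, 4 genes besides Calcb were called that the full set did not call. Ramp2, a receptor activity-modifying protein for peptides of the calcitonin family, was at 31.7, 81.4 and 64.9 in WT and 25.7, 19.8 and 32.2 in treated neurons (-1.63 without the pair, adjusted p = 0.0318). Dlk2, a Notch ligand relative, was at 4.34, 12.0 and 10.4 against 1.16, 1.97 and 2.70 (-2.28, adjusted p = 0.0283), and Mrps35, a mitochondrial ribosome protein, also differed by -1.04 (adjusted p = 0.0442). Cartpt, a neuropeptide precursor, was higher, at 54.7, 14.2 and 19.5 in WT and 46.1, 58.2 and 28.9 in treated neurons (1.60, adjusted p = 0.0318). In all 5 genes it is WT 1 that lies nearest to, or among, the treated values. This follows largely from how the 5 were picked, as calls that appeared only once WT 1 and SMA+Pifithrin-α 3 were left out.

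Within the SMN complex Ddx20, the helicase Gemin3, was at 5.30, 3.05 and 4.31 in WT, 7.48, 4.16 and 5.10 in SMA and 12.2, 9.54 and 11.1 in SMA+Pifithrin-α. It was above both other groups in every treated library, without reaching a call (1.21 ± 0.31 against WT, adjusted p = 0.279, and 0.89 ± 0.31 against SMA, adjusted p = 0.437). Gemin2, which binds SMN directly, overlapped, and its difference of 0.80 turned to -0.14 without the pair. Among injury and stress genes Fos, an AP-1 subunit, was at 10.3, 13.4 and 25.7 in WT and 17.3, 26.5 and 41.9 in treated neurons (adjusted p = 0.679), and Trib3, a target of the stress factor ATF4, at 2.25 to 2.96 and 0.669 to 1.57 (adjusted p = 0.673).

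**Figure D5:**
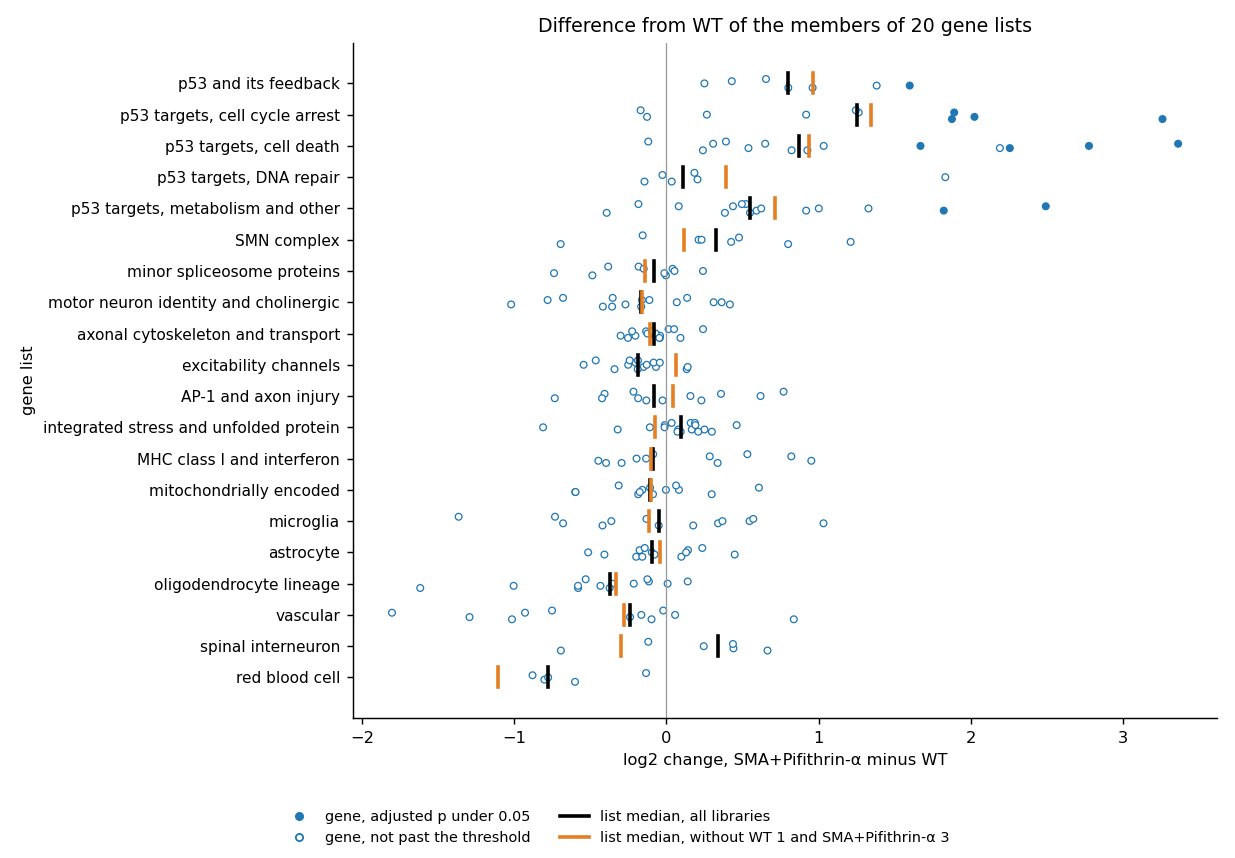
Log2 difference between SMA+Pifithrin-α and WT (horizontal axis) of the tested members of 20 gene lists (rows). Circles are genes, filled where the adjusted p was under 0.05. Vertical bars are list medians with all libraries (black) and without WT 1 and SMA+Pifithrin-α 3 (orange). Filled circles stand only in the p53 lists, and the 2 medians lie on opposite sides of 0 for excitability channels, AP-1 and axon injury, integrated stress and spinal interneuron genes.

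Markers of other cells that a capture could include were examined because bulk RNA cannot tell fewer cells of a type from less RNA per cell. Against WT none of the 61 tested markers of microglia, astrocytes, oligodendrocytes, vessels, interneurons and red blood cells was called with limma, and 7 had an unadjusted p under 0.05, a level that 7.29% of all genes passed. The microglial Itgam, the endothelial Cdh5 and the interneuron genes Slc32a1, Pax2 and Lhx5 did not pass the filter on low values. Summed levels of 13 tested microglial markers were 87.3 to 108 in WT, 97.1 to 131 in SMA+Pifithrin-α and 180 to 201 in SMA, so the treated libraries overlapped with WT and lay below all SMA libraries. For 13 oligodendrocyte lineage markers the sums were 768 to 2456 in WT, 785 to 1227 in treated and 890 to 4182 in SMA, and for 13 astrocyte markers 1271 to 1987, 1506 to 1629 and 1551 to 2164.

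In the comparison with SMA, where Cdkn1a, Dcxr and Crip2 had negative differences, no microglial, astrocyte or oligodendrocyte marker was called with limma. At an unadjusted p under 0.05, 8 of 13 microglial, 4 of 13 astrocyte and 4 of 13 oligodendrocyte markers were lower and none higher. Of all 15425 tested genes, 787 were lower and 954 higher at that level. The part of these cells in the values of the 3 genes was not tested. The median difference from SMA was -1.07 for microglial, -0.91 for oligodendrocyte and -0.62 for astrocyte markers (-0.97, -0.94 and -0.34 without the pair), while that from WT was -0.05, -0.37 and -0.10. In microglia 8 of 13 markers had treated libraries below every SMA library, as 9.81% of all genes did. C1qb, a complement subunit, was at 4.78, 9.60 and 13.6 in WT, 19.0, 10.3 and 7.02 in treated and 20.7, 33.4 and 29.2 in SMA, and Tyrobp, a microglial signalling adaptor, at 17.7, 12.0 and 3.67, at 6.88, 3.00 and 7.78, and at 23.1, 22.7 and 15.8. In both genes the treated libraries overlapped with WT and lay below all SMA libraries. Aif1, the microglial protein Iba1, was below both other groups in each treated library, at 3.63, 0.101 and 2.92 against 4.37 to 10.2 in WT (-1.37 ± 0.50, adjusted p = 0.609). P2ry12, a microglial purine receptor, went the other way against WT, at 1.42, 4.74 and 8.67 in WT and 11.8, 7.31 and 9.86 in treated libraries, which overlapped (1.03 ± 0.42, adjusted p = 0.616). Against WT 2 of 13 microglial markers were higher and 1 was lower at an unadjusted p under 0.05.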

How the data were processed

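TPM of genes and transcripts were deposited by the authors in files named as kallisto output. Per the submitters' processing notes, kallisto 0.44.0, the mouse build GRCm38.p6 (mm10) and DESeq2 were used, without a role for each. Each library sums to 1000000 TPM, so depth is unknown.

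Libraries were grouped by their labels. TPM were divided by median-of-ratios factors over 13320 genes above 0 in every library, and log2(scaled TPM+1) was tested with limma 3.58.1 (variance trend, 1 mean per group, all 15 libraries, Benjamini-Hochberg over all tested features). Data were simulated for the 15425 genes of the comparison with WT, with 200 genes of levels clear of 0 changed and an equal spread in every library. Of genes changed by a log2 step of 2, 81.5% were called, and of those changed by 1, 3.5%. False calls made up 4.12% and 12.5% of the calls. Changes in genes near 0 and libraries that stand apart were not simulated. Transcripts were matched to GENCODE M21 (98.6%). Alternatives were other scalings, pseudocounts, filters, sets of libraries, weights, a mitochondrial term and a replicate block.

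The rule for named genes took Chat, Smn1, Ccng1, Cdkn1a, Trp53, Mdm2 and Mdm4, every called gene, and the 2 members of lowest p of each list. Other genes were named after their values were seen. Members and lists were chosen with earlier results of these data known. The SMA+MW150 and SMA+SMN-C3 libraries entered the filter, the scaling and the shared fit, and no comparison of groups was made with them.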

Additional observations from a re-analysis of the deposited data

How the results depend on the processing

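All 27 called genes kept their direction in every alternative, each of which reuses libraries they were picked on. Of these, 6 (Cdkn1a, Dcxr, 1700007K13Rik, Crip2, Zfp87 and Plk2) lost the call only with the 6 libraries alone. Against WT the count of called genes was 15 with a pseudocount of 5, 9 without the filter, 0 with only the compared groups, 7 with array weights, 42 with a mitochondrial term, 18 without scaling, 18 without the pair, and 9 to 24 with 1 library left out. Against SMA the single call became 0 with a pseudocount of 0.1, a mean TPM of at least 5 or only the compared groups, 2 without the filter, and 1 to 2 with 1 library left out. For SMA against WT the 46 calls became 7 with only the compared groups, 121 with array weights, and 21 to 57 with 1 library left out. The 27 called transcripts became 16 with a pseudocount of 5, 0 with only the compared groups, 1357 with array weights, 60 with a mitochondrial term, and 11 to 46 with 1 library left out. The cause of these shifts was not tested. The fit on the compared groups has fewer samples, and for SMA+Pifithrin-α and WT these include the pair. The replicate numbers did not pair the libraries (same-number correlations between treated and WT of -0.32, 0.04 and -0.26), and a replicate block gave 22 genes and 12 transcripts. The median of the p53 genes, 0.65, was 0.51 with a pseudocount of 5, 0.82 without the pair, and 0.64 to 0.81 with 1 library left out. The difference in mitochondrial share, 0.608, was -1.78 without WT 2, -1.79 without WT 3 and -3.13 without SMA+Pifithrin-α 3, and at most 5.40. Of 64 named genes 9 changed sign somewhere, none of them called. With 1 library left out these spanned -0.17 (without WT 2) to 0.80 for Mdm4, -0.000503 (without SMA+Pifithrin-α 1) to 0.31 for Xpc, -1.13 to 0.036 (without WT 1) for mt-Nd6, -0.065 (without SMA+Pifithrin-α 3) to 1.28 for mt-Co1, -1.02 to 0.052 (without SMA+Pifithrin-α 3) for Cacna1a and -0.0041 (without WT 1) to 1.32 for Pvalb. Without the pair Gemin2 (-0.14), Asns (-0.15), Cacna1c (0.17), Cacna1a (0.29) and Pvalb (-0.20) changed sign, and with array weights Cacna1c (0.052), Cacna1a (0.014) and Pvalb (-0.21). With 3 libraries a group, steps near a log2 of 1 were rarely called on simulated data, so genes not called may still differ.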

Other observations

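Against SMA no motor neuron marker was called with limma. Of 15, 8 were above 0 and 7 below, with a median of 0.01, and 3 were higher at an unadjusted p under 0.05, as were 954 of all 15425 tested genes. The values of 2 of these 3 are given after they were seen. Chodl, a lectin-like protein that marks fast motor neurons, was at 110, 126 and 360 scaled TPM in SMA, 270, 357 and 1221 in SMA+Pifithrin-α and 506 to 714 in WT. Its highest value was that of SMA+Pifithrin-α 3, and the difference from SMA was 1.52 ± 0.48 (adjusted p = 0.437) and 0.86 without the pair. Slc5a7, the choline transporter, was at 93.2 to 105 in SMA, 119 to 351 in SMA+Pifithrin-α and 142 to 387 in WT (1.08 ± 0.40 from SMA, adjusted p = 0.437). The mitochondrially encoded genes stood above SMA too, 13 of 13 with a median of 1.15 (0.55 without the pair), and the part of library quality in these values was not tested.

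Among vascular markers 3 of 11 were lower than in WT at an unadjusted p under 0.05, as 2.81% of all genes were. Vtn, the adhesion protein vitronectin, was at 12.9, 20.1 and 11.3 in WT and 8.89, 2.81 and 1.24 in treated libraries, below WT in each (-1.80 ± 0.66, adjusted p = 0.611). Pecam1, an endothelial adhesion receptor, was at 11.3, 5.10 and 4.04 in WT and 4.59, 2.97 and 1.06 in treated libraries, which overlapped. Its difference of -1.02 ± 0.44 (adjusted p = 0.640) was -0.22 without the pair.

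Tap2, the partner subunit of Tap1 in peptide transport, was at 0.218, 0.0404 and 2.37 in WT and 2.69, 2.81 and 0.678 in treated libraries, with 4.40 to 6.59 in SMA. It overlapped with WT and lay below every SMA library (-1.10 ± 0.51 from SMA, adjusted p = 0.437).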
